A study of Homo sapiens with 12 samples.

Results

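The interferon-stimulated effector genes examined here are 38 genes whose products act downstream of the interferon receptors: ISG15 and the enzymes that handle it, the MX and GBP GTPases, the IFITM proteins and BST2, RNA and nucleotide factors such as RSAD2, the antiviral PARP proteins with DTX3L, nuclear body and TRIM proteins, and the IFI genes. They were taken from a list of interferon-stimulated genes with the IFIT, OAS, IRF and RNA sensor families left out. All 38 symbols were found among the 54127 genes counted. The rule names genes by function and uses no measured value, although the list was drawn up with earlier results of these data known. RNA was sequenced (RNAseq) from C4-2 cells, an androgen-responsive prostate cancer (PrCa) line derived from LNCaP, after 6 h with DMSO, the vehicle, or with 1 µM PBKi. PBKi is HI-TOPK-032, an inhibitor of the kinase PBK, also called TOPK. Cells in both arms were grown in the same medium with 10% fetal bovine serum, and each arm had 6 libraries. The comparison asks which transcripts differed when the kinase inhibitor was present.

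Interferons are secreted proteins that bind receptors carrying JAK1, TYK2 or JAK2 on their inner face. Those kinases phosphorylate transcription factors of the STAT family, which join IRF9 and bind a short DNA element, the interferon-stimulated response element (ISRE), in front of a large set of genes. The products of these genes degrade viral RNA, block virus entry or replication and tag proteins with ISG15, and many are also switched on directly by IRF3 after a cell senses foreign or misplaced nucleic acid. In tumour cells, including those of the prostate, the same genes are known as a signature that can be active without infection.

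Reads assigned to genes totalled 9663203 to 28029908 per DMSO library and 13122415 to 22817803 per PBKi library (two-sided exact permutation p = 0.905). Reads outside genes made up 5.74% to 6.96% of a DMSO library and 5.94% to 9.30% of a PBKi library (exact permutation p = 0.206), and were most frequent in PBKi replicates 3 (9.30%) and 6 (8.83%). Reads that fell on more than one gene, which were not counted, were 3.87% to 4.10% of each DMSO library against 4.16% to 4.35% of each PBKi library, so the arms did not overlap (exact permutation p = 0.00216), and their part in the values of members that share exon bases with other genes was not tested. Levels are given as CPM, counts scaled to each library's total over the tested genes after TMM adjustment, and differences as log2 fold changes of PBKi over DMSO with their standard error (SE). The labels do not say that the libraries came from separate cultures, so p-values measure only the spread between these libraries, which may be technical. All 8 luminal prostate markers looked up were present, with a summed level of 4646 to 5618 CPM in DMSO and 2317 to 3203 CPM in PBKi. PBK itself had a median of 217 CPM in DMSO and 168 CPM in PBKi and fell by 0.42 (SE 0.095, adjusted p = 0.00194), although the libraries of the arms overlapped. An inhibitor acts on the kinase protein, so this transcript does not check the labels.

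Of the 38 genes, 32 had at least 10 counts in at least 6 libraries and were tested among 14505 genes. RSAD2, SAMD9, IFI27, IFI44 and TRIM22 would not have passed that filter on their DMSO libraries alone, so their difference was in part set by the filter. With PBKi, 24 of the 32 tested members rose, 1 fell (IFITM2) and 7 did not pass at an adjusted p of 0.05, from the quasi-likelihood test of edgeR and Benjamini-Hochberg adjustment over all genes tested. Among all genes tested, 20.1% rose and 21.5% fell, so a call in either direction was made for 41.7% of them. Leaving aside those 5, 19 of the other 27 tested members rose. The median log2 fold change was 0.53 over the 32 tested members and 0.43 over those 27, against -0.012 over all genes tested. In 21 members every PBKi library lay above every DMSO library, which 10.5% of all genes tested did, and in 0 members did every PBKi library lie below, against 9.68% of genes. A group of 7 members rose by at least 1 on the log2 scale (RSAD2, IFI44, SAMD9, ISG15, HERC5, ISG20 and IFI27), against 3.26% of genes, and IFI6 missed that size narrowly at 0.997. The 21 members without overlap include all 5 that needed their PBKi libraries to pass the filter. RSAD2, IFI44, SAMD9 and IFI27 among the 7 also needed them. Both counts were thus in part set by the filter and are not like for like with the shares of all genes. Bulk RNA does not separate more transcript per cell from more cells carrying it.

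**Figure D1:**
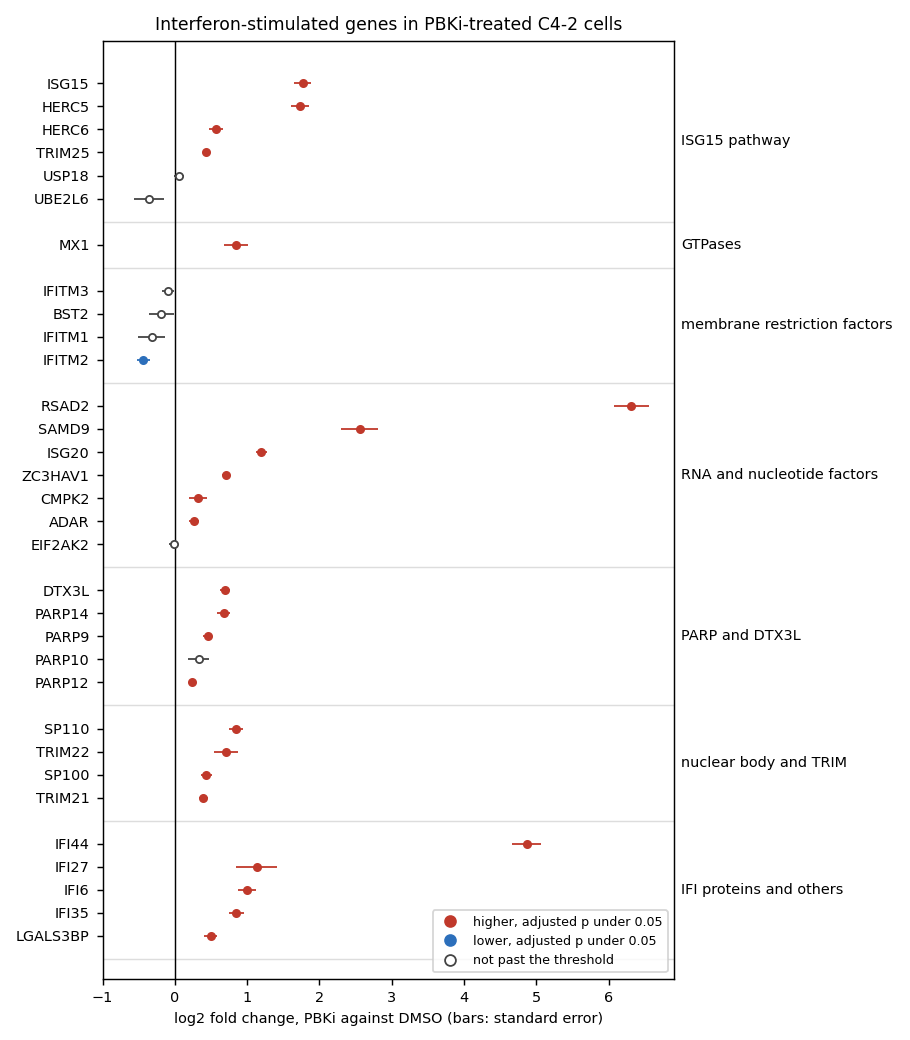
Log2 fold change of PBKi over DMSO (x axis) for the 32 tested members, ordered by role, with bars of 1 SE, derived from the edgeR test statistic, and colours for the call at an adjusted p of 0.05. RSAD2 at 6.31 and IFI44 at 4.87 stand far to the right, most of the others lie between 0 and 2, and the 4 membrane factors (IFITM1, IFITM2, IFITM3 and BST2) lie left of 0.

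Each of the 7 members that rose by at least 1 holds the ISRE core upstream of a RefSeq start site. The core is GAAA, any 2 bases and GAAA again, on one strand or the other. The genes were listed as interferon-stimulated, and the ISRE is the element through which such genes are switched on. Its presence is therefore not independent of the choice of genes. The stretches are shown so that the letters matched in each gene can be read. The core was also present in members that did not pass the test. They come from RefSeq windows on GRCh38.p14 that run from 250 bases before a start to 50 after it, read 5′ to 3′ on the strand of the gene, with every ISRE core match in capitals and positions counted from the start base as 0. Each stretch holds the match or overlapping matches nearest the start that lie wholly upstream of it, and some windows hold more. RSAD2 (chr2:6877612-6877661, plus strand) has this match at -145, IFI44 (chr1:78649751-78649788, plus) at -18, SAMD9 (chr7:93118086-93118135, minus) at -136 and ISG15 (chr1:1013364-1013419, plus) at -113. HERC5 (chr4:88457025-88457074, plus) has it at -74, ISG20 (chr15:88638927-88638976, plus) at -69 and IFI27 (chr14:94110621-94110670, plus) at -95.
RSAD2: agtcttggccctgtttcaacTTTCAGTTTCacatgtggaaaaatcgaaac
IFI44: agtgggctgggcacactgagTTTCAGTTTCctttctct
SAMD9: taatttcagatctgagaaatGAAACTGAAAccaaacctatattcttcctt
ISG15: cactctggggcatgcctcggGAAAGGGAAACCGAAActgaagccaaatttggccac
HERC5: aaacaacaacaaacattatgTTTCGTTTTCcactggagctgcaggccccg
ISG20: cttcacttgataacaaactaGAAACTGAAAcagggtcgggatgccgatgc
IFI27: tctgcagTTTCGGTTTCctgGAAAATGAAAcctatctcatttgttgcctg

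RSAD2, IFI44 and HERC5 carry the core on the opposite strand, so their capitals hold its reverse complement. A pair of overlapping matches forms one longer run in ISG15 and in BST2, and IFI27 shows separate matches on both strands. Another 3 members are shown because they hold the same core and did not pass the test: IFITM1 (chr11:313980-314029, plus) at -40, IFITM3 (chr11:320866-320915, minus) at -35 and BST2 (chr19:17405725-17405780, minus) at -130.
IFITM1: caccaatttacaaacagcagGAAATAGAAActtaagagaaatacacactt
IFITM3: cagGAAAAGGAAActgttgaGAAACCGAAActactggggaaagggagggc
BST2: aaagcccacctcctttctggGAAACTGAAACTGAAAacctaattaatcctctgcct

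Windows were found for 33 of the 38 members (USP18, MX2, IFITM2, PARP10 and TRIM22 had no entry), and 22 of the 33 held the ISRE core. It stood in 1195 of 27305 genes with a window, or 4.38%. Among members that rose, 15 of 23 held it, and among those that did not pass the test, 4 of 5 did. In PARP9 and DTX3L, which face away from each other, the match is the same 10 bases (chr3:122564332-122564341), at -41 from the start of PARP9 and at -6 from that of DTX3L. The core of the gamma-activated site, TTCNNNGAA, which reads the same on both strands, was in 9 of 33 members and in 9.38% of all genes. A match in these letters is a description of the window and does not show that a factor binds there.

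**Figure D2:**
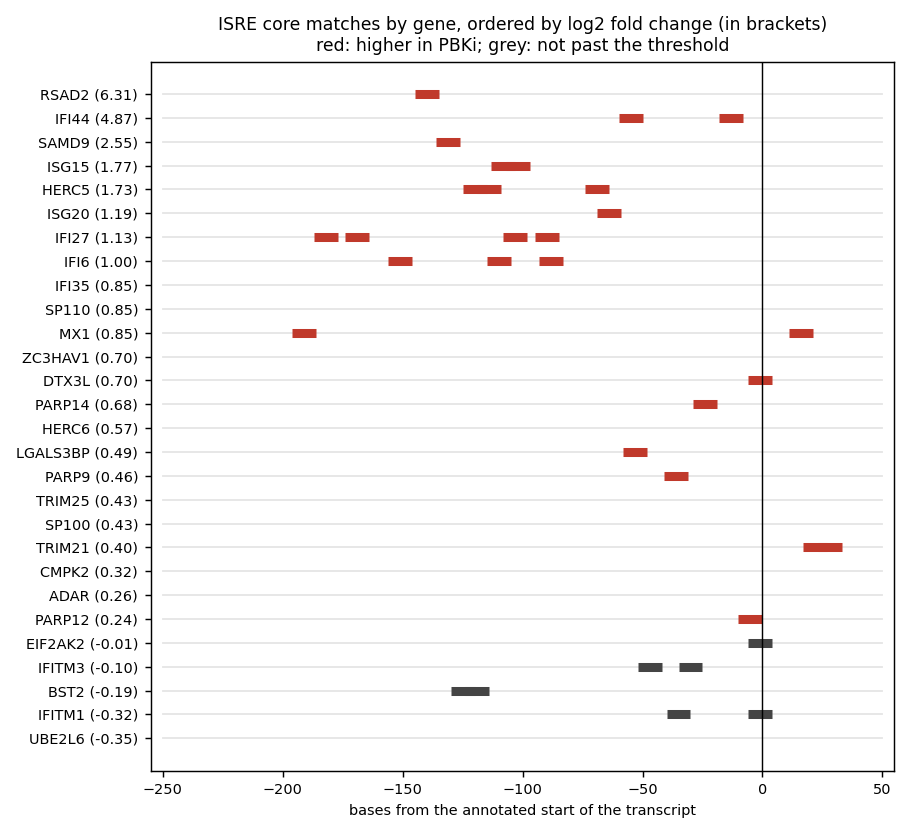
Position of each ISRE core match in bases from the start site (x axis, windows of 250 bases before to 50 after it) for the tested members with a window, ordered by log2 fold change (in brackets); each bar spans a match, red for members that rose and dark grey for members that did not pass the test. The members at the top, from RSAD2 (6.31) to IFI6 (1.00), each have a bar upstream of the start, and so do IFITM3, BST2 and IFITM1 near the bottom. UBE2L6 (-0.35) has none. Members that rose and have none are IFI35 (0.85), SP110 (0.85), ZC3HAV1 (0.70), HERC6 (0.57), TRIM25 (0.43), SP100 (0.43), CMPK2 (0.32) and ADAR (0.26).

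ISG15 is a small ubiquitin-like protein that is attached to other proteins, and HERC5 is the main ligase that attaches it. ISG15 (ENSG00000187608; GRCh37 chr1:936518-949920, plus strand) measured 8.81, 10.9 and 17.0 CPM at the lowest, median and highest DMSO library and 33.1, 39.5 and 43.9 CPM in PBKi. HERC5 (ENSG00000138646; chr4:89378270-89427314) measured 3.35, 4.72 and 6.23 CPM in DMSO and 13.7, 15.5 and 18.9 CPM in PBKi. For both genes, every PBKi library was well above the highest DMSO library. ISG15 rose 3.41-fold (log2 fold change 1.77, SE 0.11, adjusted p = 2.13e-09) and HERC5 3.32-fold (1.73, SE 0.12, adjusted p = 6.85e-09).

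Values for the other ISG15 pathway genes were closer to 0. HERC6, a relative of HERC5 and its neighbour on chromosome 4, measured 6.17, 7.54 and 9.65 CPM in DMSO and 10.8, 11.7 and 12.1 CPM in PBKi and rose by 0.57 (SE 0.098, adjusted p = 0.000169). TRIM25, a ubiquitin ligase that acts on the RNA sensor RIG-I, was abundant in both arms, at 109.6, 118 and 128 CPM in DMSO and 148, 159.7 and 169 CPM in PBKi, and rose by 0.43 (SE 0.05, adjusted p = 2.42e-06). Its exons share bases with several other genes, including 132 with C17orf67 on the same strand. The protease that removes ISG15, USP18, and the enzyme that passes ISG15 to its ligases, UBE2L6, did not pass the test. USP18 measured 16.2, 16.8 and 20.4 CPM in DMSO and 16.1, 18.6 and 19.4 CPM in PBKi, with a log2 fold change of 0.06 (SE 0.071, adjusted p = 0.507). UBE2L6 measured 1.26, 2.11 and 2.49 CPM in DMSO and 1.02, 1.64 and 2.1 CPM in PBKi, with -0.35 (SE 0.21, adjusted p = 0.178). The libraries of the arms overlapped for USP18 and UBE2L6 and were apart for ISG15, HERC5, HERC6 and TRIM25.

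Among the RNA and nucleotide factors, RSAD2 (viperin), a radical SAM enzyme that makes a chain-terminating nucleotide, had the largest fold change of the members. RSAD2 (ENSG00000134321; chr2:7005688-7038370, plus strand) had 9, 1, 6, 7, 0 and 0 counts in DMSO replicates 1 to 6 and 240, 320, 520, 454, 259 and 213 counts in PBKi replicates 1 to 6. In CPM its lowest, median and highest libraries were 0, 0.147 and 0.485 in DMSO and 15.7, 19.1 and 22.1 in PBKi. The transcript was thus near the limit of detection without PBKi, where 3 counts are worth 0.108 to 0.325 CPM depending on the library, and reached 213 to 520 counts in the PBKi libraries. The fitted difference was 6.31 on the log2 scale (SE 0.24, adjusted p = 2.09e-12), which placed RSAD2 14th of 14505 genes by log2 fold change. With so few DMSO counts the size of that fold depends on the prior count of the fit, which was left at the edgeR default.

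CMPK2, a mitochondrial nucleotide kinase, lies head to head with RSAD2 on the opposite strand, and the genes share 351 exon bases. CMPK2 measured 4.95, 6.92 and 7.29 CPM in DMSO and 6.78, 7.62 and 9.75 CPM in PBKi, and the arms overlapped. It rose by 0.32 (SE 0.12, adjusted p = 0.0452), and the call was lost in 5 of the 12 fits that left out 1 library (without DMSO replicate 3 or 6, or PBKi replicate 2, 3 or 4), with adjusted p from 0.0665 to 0.121. The library kit is not stated to keep strand, so reads in the shared bases cannot be given to either gene.

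ISG20, an RNA exonuclease, measured 6.21, 6.89 and 7.34 CPM in DMSO and 14.1, 15.0 and 17.4 CPM in PBKi, with no overlap. Its log2 fold change was 1.19 (SE 0.077, adjusted p = 2.15e-09). SAMD9, a cytoplasmic factor that limits poxviruses, measured 0.18, 0.341 and 0.671 CPM in DMSO and 1.81, 2.12 and 2.88 CPM in PBKi, again with no overlap, and rose by 2.55 (SE 0.26, adjusted p = 5.18e-07). The change was 2.29-fold for ISG20 and 5.87-fold for SAMD9, the scarcer of the pair.

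ZC3HAV1 (ZAP), which binds CpG-rich RNA and recruits its decay, was among the most abundant members at 139.5, 145 and 158 CPM in DMSO and 213, 235 and 259 CPM in PBKi, and rose with no overlap (log2 fold change 0.70, SE 0.053, adjusted p = 1.72e-08). ADAR, the enzyme that edits adenosine in double-stranded RNA, measured 345, 377 and 447 CPM in DMSO and 414, 468 and 489.7 CPM in PBKi. In 5 of 6 PBKi libraries it exceeded the DMSO range, and ADAR rose by 0.26 (SE 0.067, adjusted p = 0.00437). EIF2AK2 (PKR), the kinase that stops translation on double-stranded RNA, had overlapping arms, with medians of 73.5 CPM and 75.1 CPM, and a log2 fold change of -0.01 (SE 0.063, adjusted p = 0.874).

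**Figure D3:**
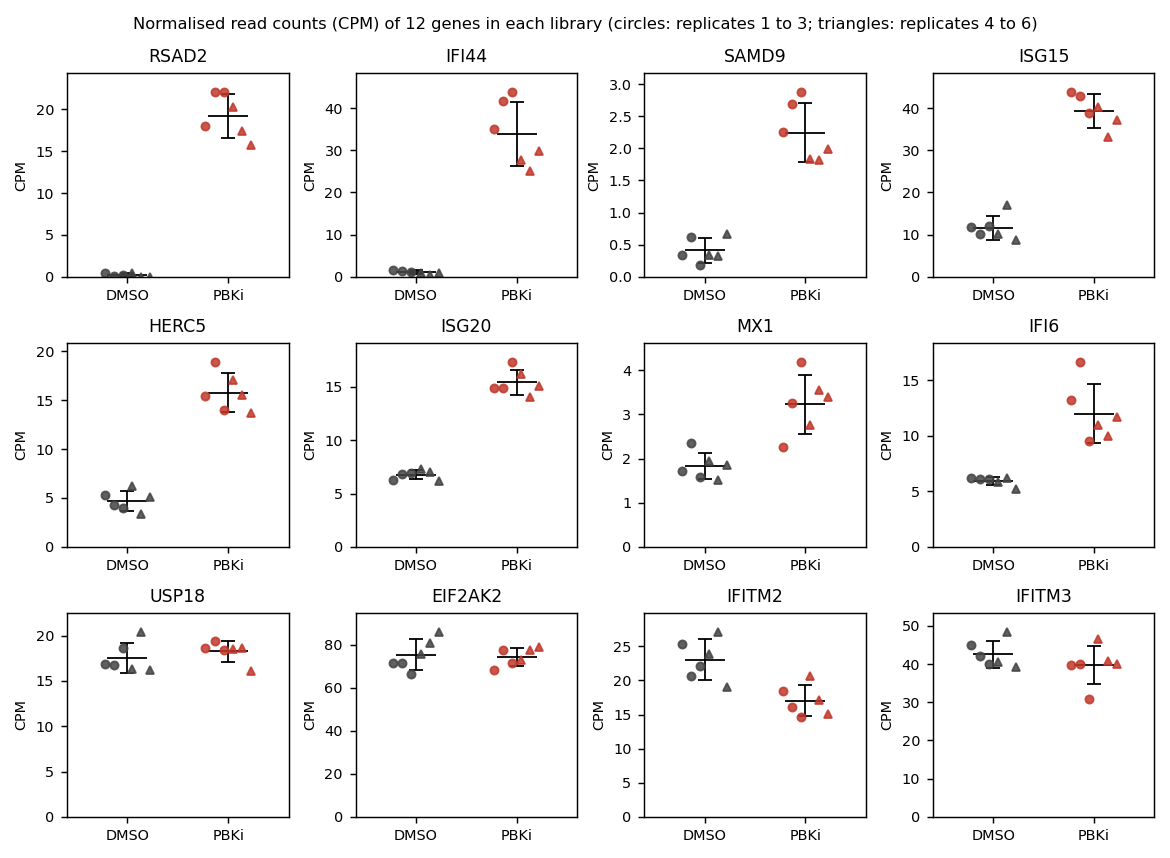
CPM (y axis, linear from 0) in each of the 6 DMSO and 6 PBKi libraries for 12 members, with circles for replicates 1 to 3, triangles for replicates 4 to 6, and a line and bars for the mean ± SD. RSAD2 and IFI44 go from medians of 0.147 and 1.12 CPM to 19.1 and 32.4 CPM with no shared range, while the points of the arms overlap for MX1, USP18, EIF2AK2, IFITM2 and IFITM3.

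Of the 8 IFI genes and genes grouped with them, 5 were tested and all 5 rose, where 20.1% of all genes tested rose. IFI44 and IFI27 needed their PBKi libraries to pass the filter, so this count was in part set by it. The untested ones (IFI44L, XAF1 and EPSTI1) are given below by raw counts. IFI44, an antiviral protein whose mode of action is not well known, measured 0.325, 1.12 and 1.58 CPM in DMSO and 25.2, 32.4 and 43.9 CPM in PBKi (ENSG00000137965; chr1:79115481-79129763, plus strand). No library of one arm came near the other, and IFI44 rose 29.2-fold (log2 fold change 4.87, SE 0.2, adjusted p = 6.84e-12). IFI6, a mitochondrial and endoplasmic reticulum protein that blocks cell death and flavivirus replication, measured 5.2, 6.12 and 6.19 CPM in DMSO and 9.49, 11.3 and 16.7 CPM in PBKi and rose by 1.00 (SE 0.13, adjusted p = 6.74e-06). IFI35, which partners the STAT-interacting protein NMI, measured 3.27, 3.62 and 4.7 CPM in DMSO and 6.11, 6.94 and 7.98 CPM in PBKi and rose by 0.85 (SE 0.11, adjusted p = 7.42e-06). Their PBKi libraries all lay above their DMSO libraries.

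LGALS3BP, a secreted galectin ligand, rose by 0.49 (SE 0.096, adjusted p = 0.000509), from 4.83, 6.18 and 6.92 CPM in DMSO to 7.75, 8.47 and 9.54 CPM in PBKi. IFI27, a mitochondrial protein, was barely detected in vehicle, at 0.0839, 0.487 and 0.757 CPM, against 0.937, 1.06 and 1.4 CPM in PBKi. It rose by 1.13 (SE 0.28, adjusted p = 0.0036), on a DMSO level of 1 to 20 counts per library, and only 1 DMSO library reached 10 counts.

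In the PARP group, PARP9 and its partner ligase DTX3L, PARP12 and PARP14 rose and had no overlap between arms. DTX3L measured 42.5, 49.7 and 57.4 CPM in DMSO and 71.2, 80.7 and 87.2 CPM in PBKi and rose by 0.70 (SE 0.07, adjusted p = 5.34e-07). PARP14, which modifies proteins with single ADP-ribose units, rose by 0.68 (SE 0.086, adjusted p = 7.82e-06), from 16.1, 19.7 and 23.4 CPM in DMSO to 28.9, 29.9 and 32.9 CPM in PBKi. PARP9, which acts in a complex with DTX3L, rose by 0.46 (SE 0.062, adjusted p = 1.54e-05), from 27.4, 30.5 and 34.3 CPM in DMSO to 38.3, 41.8 and 45.4 CPM in PBKi. The PARP9 and DTX3L exons share 139 bases on opposite strands, so part of their reads cannot be told apart. PARP12 changed little in size but with a narrow spread, 29.9 to 31.3 CPM against 35.2 to 36.9 CPM (log2 fold change 0.24, SE 0.047, adjusted p = 0.000589). PARP10 missed the threshold, with a log2 fold change of 0.33 (SE 0.14, adjusted p = 0.0738), and passed it without DMSO replicate 5 (adjusted p = 0.0466) or 6 (adjusted p = 0.0442).

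All 4 nuclear body and TRIM members rose, with no overlap between arms. Of all genes tested, 20.1% rose and 10.5% had every PBKi library above every DMSO library. TRIM22 needed its PBKi libraries to pass the filter, so these counts are not like for like with those shares. SP110, a nuclear body protein and chromatin reader, measured 3.65, 3.8 and 4.39 CPM in DMSO and 6.5, 6.74 and 7.85 CPM in PBKi, a log2 fold change of 0.85 (SE 0.096, adjusted p = 1.97e-06). Its relative SP100 rose by 0.43 (SE 0.076, adjusted p = 0.000204), from 15.0, 19.5 and 20.5 CPM in DMSO to 23.0, 25.3 and 28.5 CPM in PBKi. TRIM22, an antiviral ubiquitin ligase, rose by 0.71 (SE 0.17, adjusted p = 0.00257) at the low level of 0.757, 1.14 and 1.33 CPM in DMSO against 1.48, 1.76 and 2.29 CPM in PBKi. TRIM21, the cytosolic antibody receptor and ubiquitin ligase, rose by 0.40 (SE 0.068, adjusted p = 0.000185), from a median of 9.86 CPM to 12.9 CPM.

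The membrane factors were the exception among the role groups: 1 fell, 3 did not pass the test and their median log2 fold change was -0.25. IFITM2, which blocks fusion of viruses in endosomes, measured 19.0, 23.0 and 27.2 CPM in DMSO and 14.7, 16.6 and 20.7 CPM in PBKi, with overlap. It fell by 0.43 on the log2 scale (SE 0.096, adjusted p = 0.00163). Its relatives IFITM3 and IFITM1 had log2 fold changes of -0.10 (SE 0.082, adjusted p = 0.358) and -0.32 (SE 0.18, adjusted p = 0.167). Reads that align equally to more than one of these genes were not counted. IFITM1 measured 2.12, 2.68 and 3.02 CPM in DMSO and 1.19, 2.15 and 3.01 CPM in PBKi. IFITM3 was the most abundant of the 3, at 39.1 to 48.5 CPM in DMSO and 30.9 to 46.5 CPM in PBKi. BST2 (tetherin), which holds budding virions at the cell surface, was low in both arms, with medians of 1.46 and 1.4 CPM (log2 fold change -0.19, SE 0.18, adjusted p = 0.414). Whether the membrane factors differ from the other members as a group was not tested.

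MX1, a dynamin-like GTPase that traps viral nucleocapsids, was the only one of the 3 GTPases with enough counts for the test. It measured 1.51, 1.79 and 2.35 CPM in DMSO and 2.25, 3.32 and 4.2 CPM in PBKi and rose by 0.85 (SE 0.16, adjusted p = 0.000459). PBKi replicate 1, at 2.25 CPM, was below the highest DMSO library, and the other 5 were above it. MX1 shares 562 exon bases with TMPRSS2 on the opposite strand, an abundant luminal gene whose log2 fold change was -1.24, and without strand their reads in those bases cannot be told apart.

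For 6 of the 38 members there were too few counts to pass the filter. GBP1, a guanylate-binding GTPase, had 0 to 1 counts per DMSO library and 6 to 25 per PBKi library, and SAMD9L, the neighbour and relative of SAMD9, had 0 to 2 against 3 to 13. For both, every PBKi library was above every DMSO library in CPM (two-sided exact permutation p = 0.00216, the smallest that the splits of 12 libraries into groups of 6 allow). The other 4 had overlapping libraries. MX2 had 5 to 11 counts in DMSO and 4 to 18 in PBKi (exact permutation p = 0.703), and XAF1, a pro-apoptotic partner of XIAP, had 5 to 9 against 6 to 31 (exact permutation p = 0.108). IFI44L had 0 to 2 against 0 to 6 (exact permutation p = 0.0628) and EPSTI1 had 1 to 12 against 3 to 5, lower in PBKi once scaled to depth (exact permutation p = 0.0498, unadjusted). When every gene with a count was fitted, 4 of these 6 (GBP1, SAMD9L, IFI44L and XAF1) passed the threshold upward, in a fit that called 10.2% of 33052 genes higher and 8.8% lower.

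Scaled to the length of their annotated exons, the members span a wide range of levels in vehicle. In DMSO the highest medians in CPM per kb were those of ADAR (30.8), ZC3HAV1 (17.1), IFITM3 (14.5), IFITM2 (14.3) and ISG15 (12.6). In PBKi, ISG15 was first at 45.6 CPM per kb, followed by ADAR (38.2) and ZC3HAV1 (27.7). The lengths join every exon annotated for a gene, 867 bases for ISG15 and 12242 for ADAR. They can exceed the transcript that is present, so this order depends in part on the annotation. IFI44 went from 0.548 to 15.9 CPM per kb.

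Many of the members lie side by side in the genome, and neighbours within 200 kb formed 12 pairs. RSAD2 and CMPK2 overlap and had log2 fold changes of 6.31 and 0.32. IFI44 and IFI44L, 3651 bases apart, had 4.87 and 1.73, the latter from the fit without a count filter. HERC5 and HERC6, 14021 bases apart, had 1.73 and 0.57. SAMD9 and SAMD9L, 12033 bases apart, had close values of 2.55 and 2.57, the latter again without the filter, and PARP9, PARP14 and DTX3L had 0.46, 0.68 and 0.70. Neighbours thus ranged from near-equal to far apart in size of change, and the differences within pairs were not tested.

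**Figure D4:**
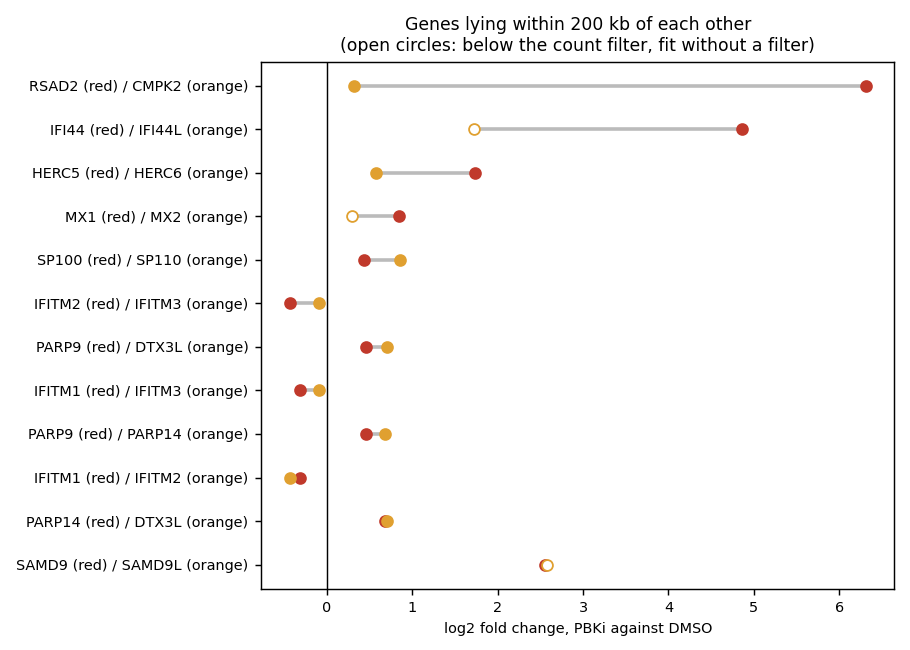
Log2 fold changes of PBKi over DMSO (x axis) for the 12 pairs of members that lie within 200 kb of each other, the first named in red and the second in orange, joined by a line, with open points for values from the fit without a count filter. RSAD2 and CMPK2 (6.31 and 0.32) and IFI44 and IFI44L (4.87 and 1.73) are the most widely spaced, and SAMD9 and SAMD9L (2.55 and 2.57) nearly coincide.

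The libraries fell into replicates 1 to 3 and 4 to 6 on the second principal component (9.76% of the variance, against 61.0% for the first), and the labels do not say what separates them. Fitted on each set alone, all 24 members that rose had a positive log2 fold change in both. The 24 were chosen as rising in the fit over all 12 libraries, which include both sets. Positive values in each set were thus largely fixed by that choice and are not an independent repeat. In replicates 1 to 3, 23 of the 24 passed the test, where 22.6% of all genes rose and 21.3% fell. In replicates 4 to 6, 20 of the 24 passed, where 9.08% of all genes rose and 8.48% fell. Those shares are of genes not chosen for rising, so they are not like for like with the 23 and 20. RSAD2 had 6.30 and 6.45, IFI44 had 4.85 and 5.17, ISG15 had 1.87 and 1.66 and HERC5 had 1.84 and 1.62. Levels of IFI44 were higher in replicates 1 to 3 of both arms, at 35.0 to 43.9 CPM with PBKi against 25.2 to 29.8 CPM in replicates 4 to 6. CMPK2 did not pass in either set (adjusted p = 0.0825 and 0.244). IFITM2 had -0.48 and -0.39, and its call was lost in replicates 4 to 6 (adjusted p = 0.0867), as were those of ADAR (adjusted p = 0.0952), TRIM21 (adjusted p = 0.095) and TRIM22 (adjusted p = 0.0547).

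**Figure D5:**
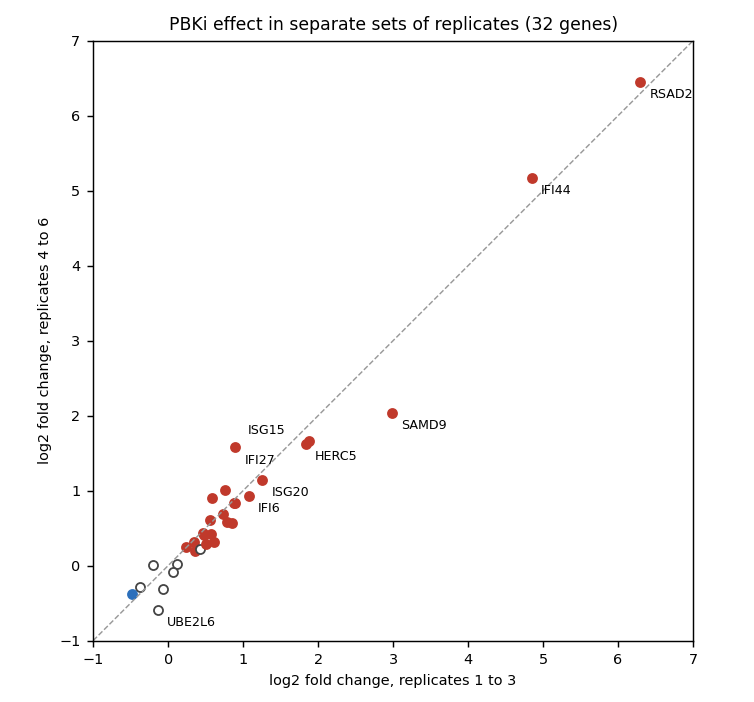
Log2 fold change of each tested member in replicates 1 to 3 (x axis) and in replicates 4 to 6 (y axis), each from its own edgeR fit, with a dashed line of equal values, red for members that rose over all libraries, blue for IFITM2 and open for the others. SAMD9 (2.98 and 2.04) lies below the line, and RSAD2 (6.30 and 6.45), IFI44 (4.85 and 5.17), ISG15 (1.87 and 1.66) and HERC5 (1.84 and 1.62) lie close to the line.

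Other genes of the pathway were looked up from a list of 21 ligands, receptors, kinases, transcription factors and inhibitors, of which 13 passed the filter, 5 rose, 3 fell and 5 did not pass the test, beside 20.1% of all genes tested that rose and 21.5% that fell. LNCaP cells, from which C4-2 was derived, are known for low JAK1 and a weak response to added interferon. JAK1 had a median of 4.90 CPM in DMSO and 7.93 CPM in PBKi and rose by 0.67 (SE 0.14, adjusted p = 0.000862), and JAK2 went from 16.3 to 28.2 CPM and rose by 0.74 (SE 0.072, adjusted p = 3.54e-07). STAT2 rose slightly, by 0.17 on the log2 scale (adjusted p = 0.0202), while IRF9 had 0.15 (adjusted p = 0.491) and TYK2 0.12 (adjusted p = 0.184). Of the receptor chains, IFNAR1 rose by 0.27 (adjusted p = 0.000671), while IFNAR2 fell by 0.33 (adjusted p = 0.00215) and IFNGR1 fell by 0.40 (adjusted p = 0.000408). The third gene that fell was PTPN2, a phosphatase that acts on JAK and STAT proteins (fell by 0.21, adjusted p = 0.00459). In replicates 4 to 6 alone the calls of IFNAR1, JAK2 and IFNGR1 held, and those lost included JAK1 (adjusted p = 0.0606), STAT2 (adjusted p = 0.462), IFNAR2 (adjusted p = 0.13) and PTPN2 (adjusted p = 0.0998).

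Of the interferon genes, only IFNB1, IFNL1, IFNE, IFNK and IFNG were looked up, and these were at or near 0. IFNB1 (interferon beta) had 0 counts in all 6 DMSO libraries and 0, 10, 5, 5, 2 and 1 counts in PBKi replicates 1 to 6 (two-sided exact permutation p = 0.0152 on log2 CPM). IFNL1 (interferon lambda 1) had 1 count in a single DMSO library and 6, 3, 2, 2, 1 and 0 counts in PBKi replicates 1 to 6 (exact permutation p = 0.0152). In the edgeR fit of every gene with a count, IFNB1 rose by 4.95 (adjusted p = 4.81e-05) and IFNL1 by 3.06 (adjusted p = 0.00841). That fit called 10.2% of genes higher, and the sizes of both folds rest on few counts. IFNE, IFNK and IFNG had no count in any library. In the families left out of the list, all 4 IFIT genes rose, with log2 fold changes from 0.36 to 6.97 (IFIT2), and so did all 3 tested OAS genes, from 0.47 to 8.06 (OASL). Of all genes tested, 20.1% rose. IFIT1, IFIT2, IFIT3, OAS1 and OASL would not have passed the filter on their DMSO libraries alone. IFIT2 had 3 to 14 counts per DMSO library and OASL had 0 to 4, so the sizes of their folds rest on few DMSO counts.

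Immune cells can also express these genes, so their markers are given. Of 9 immune markers, CD3D and MS4A1 had no count in any library, and the summed level of the 9 was 2.77 to 4.70 CPM in DMSO and 5.24 to 6.50 CPM in PBKi. Nearly all of it was CD68, a lysosomal protein that other cells express too, which rose by 0.68 (adjusted p = 0.00064). Without CD68 the sum was 0.288 to 0.397 CPM in DMSO and 0.276 to 0.738 CPM in PBKi, and PTPRC, the common leukocyte antigen, had 11 counts over all libraries together. LYZ had 0 counts in DMSO and 15 over the PBKi libraries together, at 0.0446 to 0.268 CPM per PBKi library. CD14 had 27 counts over the DMSO libraries and 21 over the PBKi libraries. These differences were not tested.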

How the data were processed

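Per the labels and the study's methods, C4-2 cells received DMSO or PBKi and RNA libraries were read as single 40-base reads. The labels mention flow-sorted cells in the RNA extraction step. The authors aligned reads to GRCh37 with TopHat2 2.0.4 and deposited raw counts per Ensembl gene and lane from HTSeq 0.5.3p9 (versions from the submitters' processing notes). The 47 lane files were summed into 12 libraries, and HTSeq's summary lines were left out. Symbols and coordinates came from GENCODE lifted to GRCh37 (47098 of 54127 identifiers matched). Genes were kept if at least 6 libraries held 10 or more counts and were tested with edgeR 4.0.16 in R 4.3.3 (TMM, quasi-likelihood test, Benjamini-Hochberg over all genes tested). A prior count of 2 was used for log2 CPM (principal components, pairing and permutation tests). The fitted log2 fold changes used the default prior count of edgeR instead. Their SE was derived as the size of the log2 fold change divided by the square root of the F statistic of the quasi-likelihood test. DESeq2 1.42.0, limma-voom (limma 3.58.1), other filters, left-out libraries and replicate subsets were alternatives. Genes under the filter were compared by two-sided exact permutation tests over libraries. Counting intervals cover sampling of reads only. The members, gene lists and tests were chosen with earlier results of these data known. Every member is accounted for: in full where the adjusted p was under 0.05 and the log2 fold change was 0.4 or more in size, for the ISG15 pathway, the IFITM genes and MX1, and by raw counts under the filter. The values of CMPK2, ADAR, PARP10, PARP12, TRIM21, EIF2AK2, IFNGR1, PTPN2, SOCS1 and SOCS3 were added after they were seen. No protein sequences were used here. Values of 1 pathway gene are not reported here.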

Additional observations from a re-analysis of the deposited data

Results flagged for a closer look

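In 2 of the 82 groups of 6 libraries examined (the 32 tested members, PBK and 8 pathway genes in each arm), 1 library stood apart from the other 5 by Dixon's 95% criterion, which chance alone meets in about 5% of groups. USP18 in PBKi replicate 6 was at 16.1 CPM, against 18.4 to 19.4 CPM in the other PBKi libraries. SP100 in DMSO replicate 5 was at 15.0 CPM, against 18.8 to 20.5 CPM in the other DMSO libraries. The cause was not tested.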

How the results depend on the processing

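The count of members that rose was 24 with DESeq2 and limma-voom and 23 to 25 when any 1 library was left out, with 1 lower call throughout those fits. It was 23 in replicates 1 to 3, 20 in replicates 4 to 6, 28 without a count filter, 21 with a filter of 30 counts and 23 without PBKi replicates 3 and 6, a setting chosen after seeing the data. By edgeR, 0 members were lower in replicates 4 to 6 (2 at an unadjusted p under 0.05) and 0 at a log2 fold change of at least 0.5 (0 unadjusted, 0 by DESeq2, 0 by limma-voom). Over all genes, 1303 rose and 1216 fell in replicates 4 to 6, 2076 fell without PBKi replicates 3 and 6, 2073 fell at an adjusted p under 0.01, and 1278 rose and 626 fell at a log2 fold change of at least 0.5. Leaving out 1 library gave 2579 to 3364 genes higher and 2618 to 3250 lower. Of the pathway genes, 2 rose and 1 fell in replicates 4 to 6, 3 rose at an adjusted p under 0.01, 2 rose and 0 fell at a log2 fold change of at least 0.5 (0 unadjusted, 0 by either other tool), and 4 to 6 rose and 3 fell with 1 library left out. PBK was at -0.27 in replicates 4 to 6 (adjusted p = 0.0578) and at -0.48 to -0.35 with 1 library left out. IFITM3 turned to 0.0021 in replicates 4 to 6. EIF2AK2 turned to 0.0018 with the filter of 30 counts, to 0.066 in replicates 1 to 3, and ranged from -0.051 to 0.036 with 1 library left out, and neither gene passed the test. The causes were not tested. Replicate numbers are shared by the arms, but same-numbered libraries deviated together with correlations of only 0.0887 to 0.299 and not each library matched its own number best, so the numbers were not taken as pairs. With the replicate block, 25 members rose (PARP10 added, adjusted p = 0.0304) and 1 fell, and 3485 genes rose and 3803 fell in all. Depth limits the members with 10 counts in fewer than 6 libraries (GBP1, SAMD9L, IFI44L, XAF1, MX2, EPSTI1).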

Other observations

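Among the 24 members that rose, the spread between libraries was a median coefficient of variation of 13.1% in DMSO and 8.31% in PBKi. PBKi replicate 5 held the lowest level of the 6 PBKi libraries for 9 of the 24 members, and PBKi replicate 2 held the highest for 7. Among inhibitors of the pathway with too few counts for the fit, SOCS3 had 4 to 16 counts per DMSO library and 2 to 6 per PBKi library (two-sided exact permutation p = 0.00866 on log2 CPM), and SOCS1 had 0 to 4 against 1 to 7 (exact permutation p = 0.284).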
